A study of Rattus norvegicus with 13 samples.

Results

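Expression of 9 chemokine genes that attract neutrophils, monocytes and other leukocytes was followed in rat intrahepatic cholangiocarcinoma and in cultured lines derived from that tumour. The genes were Cxcl1, Cxcl2, Cxcl6, Ppbp, Ccl2, Ccl7, Ccl20, Cx3cl1 and Cxcl12. They were taken by symbol from the array's annotation, 9 of the 14217 genes measured, and 11 probe sets named them. Cxcl12 had 3 probe sets, of which the one with the highest mean stood for the gene, and each other gene had 1.

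The 13 Affymetrix arrays, all from Fischer 344 rat material, fell into 5 groups. Tumour tissue (4 arrays) was snap-frozen cholangiocarcinoma that had formed in young adult male rats after BDEsp cells, which are spontaneously transformed rat cholangiocytes, were placed in the bile duct. The epithelial line BDEsp-TDEH10 (3 arrays) and the fibroblastic, α-smooth muscle actin-positive line BDEsp-TDFE4 (4 arrays) are each 1 clone from such a tumour, grown alone in gels of type I collagen. A further array carried the label of each line in co-culture with the other (1 array each). The density of fibroblastic cells behind the co-culture arrays, and how RNA was assigned to a line, are unknown from the labels. It is also unstated whether arrays of a group came from separate cultures or animals, so p-values measure the spread between these arrays, which may be technical.

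Chemokines are small secreted proteins that bind G protein-coupled receptors on leukocytes and direct their movement along a gradient. The CXC chemokines that carry a glutamate-leucine-arginine motif, here Cxcl1, Cxcl2, Cxcl6 and the platelet-associated Ppbp, act on Cxcr2 and draw neutrophils. Ccl2 and Ccl7 draw monocytes through Ccr2, Ccl20 draws Ccr6-bearing lymphocytes and dendritic cells, and Cx3cl1 is made as a membrane-bound protein that is shed and is read by Cx3cr1. Cxcl12, a product of stromal cells, signals through Cxcr4. Inflamed bile duct epithelium is a known source of neutrophil chemokines, and NF-kappaB is a well-known inducer of many genes of this family.

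Cxcl1, Cxcl2, Cxcl6 and Ppbp lie near each other on chromosome 14, where the order of neighbouring chemokine genes in RefSeq was Cxcl2, Cxcl1, Cxcl3, Pf4, Ppbp and Cxcl6. Ccl2 and Ccl7 are neighbours on chromosome 10. The 250 bases before the start of each chromosome 14 member are given from RefSeq (GRCr8), 5′ to 3′ on the minus strand that carries the gene, because these genes were measured together below and because their proximal promoters differ in the motifs searched, kappaB and TATAAA. The intervals are chr14:17479322-17479571 for Cxcl1, chr14:17467256-17467505 for Cxcl2, chr14:17596418-17596667 for Cxcl6 and chr14:17587300-17587549 for Ppbp. Capitals mark matches to the NF-kappaB (kappaB) consensus on either strand, and matches on the opposite strands overlap.
Cxcl1: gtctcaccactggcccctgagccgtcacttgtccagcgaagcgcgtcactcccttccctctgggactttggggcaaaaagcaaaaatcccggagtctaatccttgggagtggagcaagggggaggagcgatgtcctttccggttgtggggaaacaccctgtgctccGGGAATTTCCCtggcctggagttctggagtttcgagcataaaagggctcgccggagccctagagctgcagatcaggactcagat
Cxcl2: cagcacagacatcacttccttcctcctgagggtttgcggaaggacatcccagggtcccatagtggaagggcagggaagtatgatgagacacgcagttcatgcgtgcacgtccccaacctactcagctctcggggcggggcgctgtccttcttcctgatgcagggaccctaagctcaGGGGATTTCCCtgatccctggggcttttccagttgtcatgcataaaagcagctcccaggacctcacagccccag
Cxcl6: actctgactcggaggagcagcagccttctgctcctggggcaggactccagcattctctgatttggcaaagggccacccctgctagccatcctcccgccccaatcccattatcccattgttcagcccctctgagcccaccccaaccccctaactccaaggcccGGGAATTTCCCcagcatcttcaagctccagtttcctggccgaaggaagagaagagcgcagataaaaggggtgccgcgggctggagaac
Ppbp: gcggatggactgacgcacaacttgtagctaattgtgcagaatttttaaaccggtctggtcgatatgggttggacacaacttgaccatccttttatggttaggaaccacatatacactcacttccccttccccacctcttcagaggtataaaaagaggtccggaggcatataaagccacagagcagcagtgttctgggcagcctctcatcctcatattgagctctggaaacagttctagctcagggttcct

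The match began 84 bases before the start in Cxcl1, 74 in Cxcl2 and 88 in Cxcl6, and no match was in the Ppbp window. The form these 3 matches share on the gene's strand, GGGNATTTCC, overlaps the kappaB consensus and was read from these windows. In all, 87 of 33469 rat promoter windows of this length held it (0.260%, both strands). The kappaB consensus in its general form was in 5 of the 8 members listed in the promoter table, the 2 others being Ccl7 and Ccl20, and in 6.33% of all windows. TATAAA was in the windows of Ppbp, Ccl7 and Cx3cl1, against 12.9% of all windows. The windows of Cxcl1 and Cxcl2 held CATAAA and that of Cxcl6 GATAAA, which differ from it only in the first letter. The Cx3cl1 window lies within the span listed for its gene, and the Ccl20 window overlaps that of its own. The AP-1 form TGANTCA was in the Ccl7 window, against 6.34%. Ccl2 had no entry in the table. A match is a string of letters and was not tested as a binding site.

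Levels below are log2 intensities as deposited, and differences are in log2 units from limma's moderated test, with p-values adjusted by Benjamini-Hochberg over all 14217 genes and called at 0.05, two-sided. Probe sets bind with different strengths, so levels are compared between arrays and never between genes. All lists of genes are described by counts and medians alone. The tumour comparisons and the comparison of the lines use the same line arrays, so they are not independent of each other. No detection calls were used, so whether a dim probe set is above background is unknown, and a difference or fold from a group near the bottom of the scale may understate the change. Precision is limited by how few arrays there are, and how far the probe sets separate the related genes Cxcl1, Cxcl2 and Cxcl3 was not tested.

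Markers of the labelled cell types were checked first. The mean log2 level of 10 epithelial markers was 12.26 to 12.86 in the epithelial arrays and 4.46 to 4.95 in the fibroblastic arrays, and that of 12 fibroblast markers was 5.24 to 5.34 and 11.44 to 11.66. Both co-culture arrays held both sets: the epithelial list stood at 11.97 in the array labelled epithelial co-culture and 11.56 in the array labelled fibroblastic co-culture, and the fibroblast list at 9.96 and 10.21. For example, the cholangiocyte keratin Krt19 was at 13.49 and 13.21, and the fibroblast matrix gene Postn at 10.83 and 10.26, where the line that lacks each was at 4.01 to 4.29 and 3.60 to 4.05. The tumours held both lists at 11.94 to 12.53 and 11.11 to 11.49, together with leukocyte and liver RNA. Their hepatocyte list stood at 12.77, 5.58, 11.22 and 12.96 in tumours 1 to 4, so tumour 2 had little liver RNA. In bulk samples like these, fewer cells of a type and less RNA per cell cannot be told apart.

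The 9 chemokines divided between the lines grown alone. Each line is a clone, so a difference between clones cannot be told apart from a difference between cell types. The neutrophil chemokines Cxcl1, Cxcl2, Cxcl6 and Ppbp, the Ccr6 ligand Ccl20 and the membrane-bound Cx3cl1 stood higher in the epithelial line. The monocyte chemokines Ccl2 and Ccl7 and the stromal chemokine Cxcl12 were higher in the fibroblastic line. All 9 passed the test, where 20.9% of all genes were called in the direction of the first 6 and 16.6% in that of the other 3. No member's arrays overlapped between the lines, which held for 26.0% of genes in the higher and 19.2% in the lower direction. The members were chosen with earlier results of these data known, so the shares of all genes describe the set and do not test it.

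**Figure D1:**
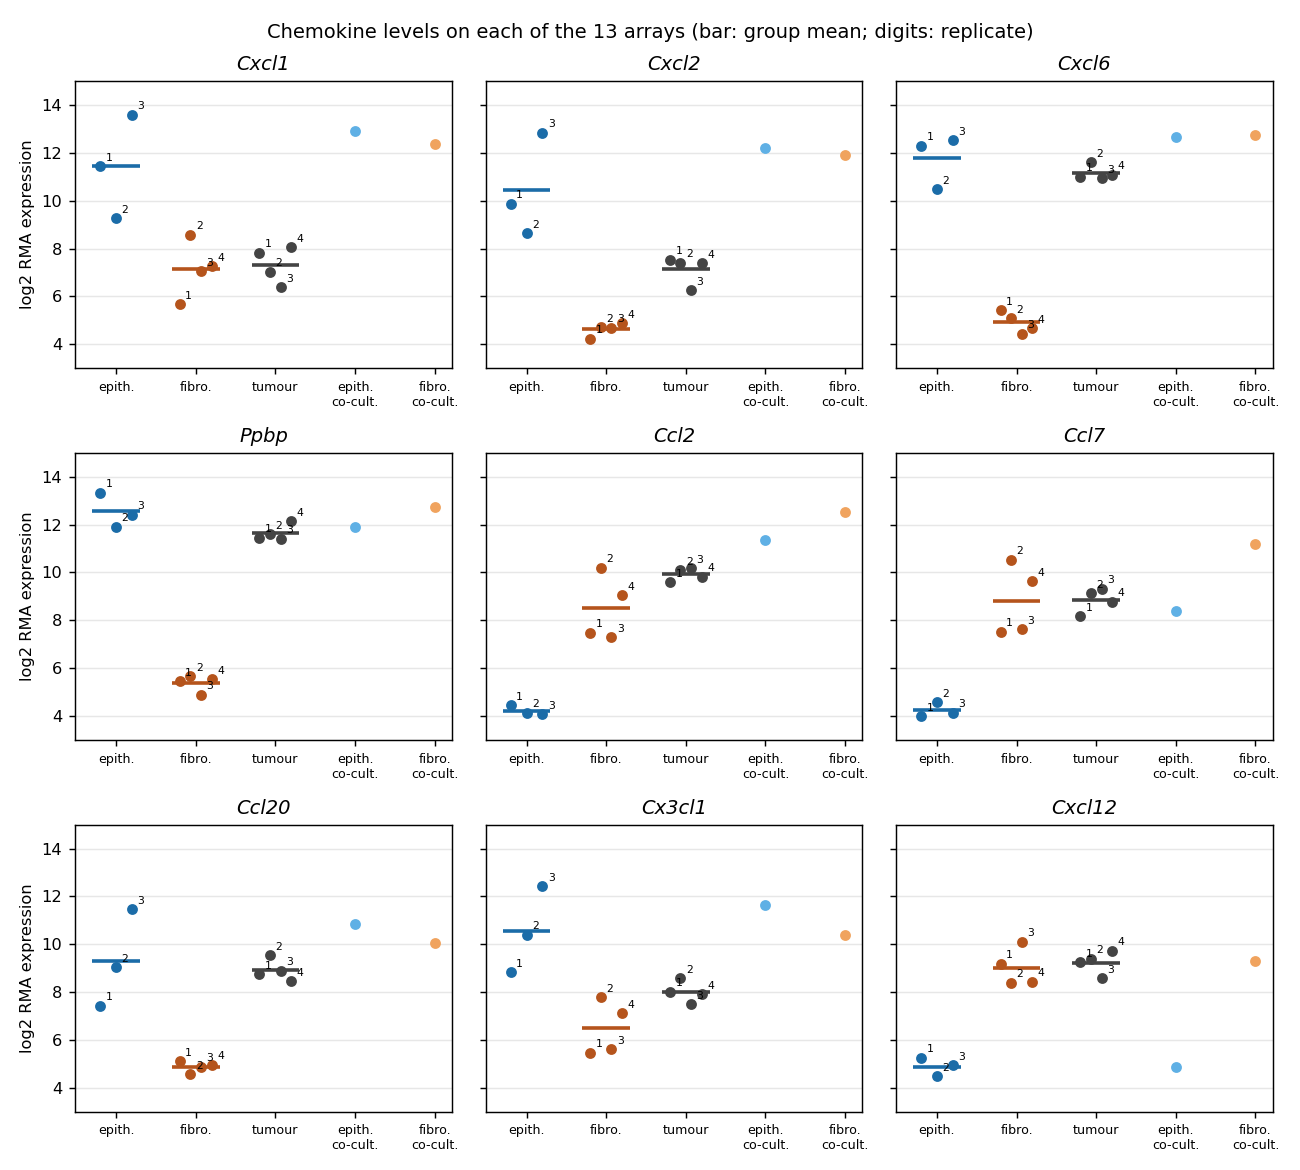
Log2 level (deposited RMA intensity) of the 9 chemokines, 1 panel a gene, in each of the 13 arrays, with group means drawn as lines. Cxcl6 and Ppbp stand at 10.49 or above in every array except the fibroblastic ones, and Ccl2 stands at or below 4.46 in the epithelial arrays and at or above 7.29 everywhere else.

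Ppbp, whose product is processed to the neutrophil-activating peptide NAP-2, was at 13.34, 11.91 and 12.42 in the epithelial arrays and at 5.46, 5.66, 4.89 and 5.54 in the fibroblastic arrays. The difference was 7.17 (SE 0.34, 95% interval 6.38 to 7.96, limma adjusted p = 2e-06). Of the 7 platelet markers measured, 1 was called higher in the epithelial line (Pf4, also a chemokine, 4.04, limma adjusted p = 0.000144) and 1 lower (the integrin Itgb3, -4.03, limma adjusted p = 8.56e-05), and 5 were not called.

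Cxcl6, a ligand shared by Cxcr1 and Cxcr2, was at 12.30, 10.49 and 12.52 in the epithelial arrays and 5.43, 5.09, 4.44 and 4.68 in the fibroblastic arrays (difference 6.86, SE 0.49, limma adjusted p = 1.95e-05). Cxcl2, also known as MIP-2, was at 9.87, 8.63 and 12.84 against 4.23, 4.70, 4.69 and 4.87 (5.82, SE 0.85, limma adjusted p = 0.00114). Cxcl1, the rat KC homologue, was at 11.44, 9.27 and 13.60 against 5.67, 8.58, 7.04 and 7.26 (4.30, SE 1.01, limma adjusted p = 0.0113). For Cxcl1 the groups came within a log2 unit of each other, at epithelial array 2 and fibroblastic array 2. Cxcl2, Cxcl6 and Ppbp were at most 4.87, 5.43 and 5.66 in the fibroblastic arrays.

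Ccl20 was at 7.43, 9.05 and 11.46 in the epithelial and 5.10, 4.56, 4.88 and 4.97 in the fibroblastic arrays (4.44, SE 0.80, limma adjusted p = 0.00324). Cx3cl1 was at 8.83, 10.40 and 12.43 against 5.47, 7.78, 5.61 and 7.13 (4.06, SE 0.88, limma adjusted p = 0.00812). Both were highest in epithelial array 3 and lowest in array 1, and in neither case did the lines overlap.

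The monocyte chemokines ran the other way. Ccl2 was at 4.46, 4.13 and 4.08 in the epithelial arrays and at 7.49, 10.19, 7.29 and 9.05 in the fibroblastic arrays (-4.28, SE 0.66, limma adjusted p = 0.00152). Ccl7, its neighbour and another Ccr2 ligand, was at 3.99, 4.58 and 4.13 against 7.52, 10.53, 7.62 and 9.63 (-4.59, SE 0.72, limma adjusted p = 0.00168). In both genes fibroblastic arrays 2 and 4 were above arrays 1 and 3, and every fibroblastic array was above every epithelial one.

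Cxcl12 was at 5.25, 4.48 and 4.94 in the epithelial and 9.18, 8.39, 10.10 and 8.43 in the fibroblastic arrays (-4.13, SE 0.42, limma adjusted p = 0.000157). Another of its probe sets gave -3.92 (limma adjusted p = 0.000707). The dimmest gave -1.10, in the same direction, and was not called (limma adjusted p = 0.17). All 9 calls between the lines held when any 1 array was left out.

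Within each line several of the chemokines varied over a wider range of levels than the median gene. The range over the 3 epithelial arrays was 4.33 for Cxcl1 (20.1-fold), 4.21 for Cxcl2 (18.5-fold), 4.04 for Ccl20 (16.4-fold) and 3.60 for Cx3cl1 (12.1-fold), where the median range of all genes was 0.44. In the 4 fibroblastic arrays it was 3.01 for Ccl7 (8.04-fold) and 7.48-fold for Ccl2, against a median of 0.53. In the tumours the median range was 1.09 for the 9 members and 0.39 for all genes.

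The same arrays were high for several members. Epithelial array 3 was the highest of its group for 5 of the 9 members (Cxcl1, Cxcl2, Cxcl6, Ccl20 and Cx3cl1), as it was for 32.4% of all genes. Fibroblastic arrays 2 and 4 were both above arrays 1 and 3 for 6 of the 9 (Cxcl1, Cxcl2, Ppbp, Ccl2, Ccl7 and Cx3cl1), as for 27.3% of all genes. For Cxcl2 and Ppbp these steps were small, within ranges of 0.64 and 0.77. Cxcl12 went the other way, at 8.39 and 8.43 in fibroblastic arrays 2 and 4 against 9.18 and 10.1 in arrays 1 and 3. The mean of 31 inflammatory inducers and NF-kappaB target genes moved alongside: it was 8.78 in epithelial array 3 against 8.01 and 8.21, and 7.51 in both fibroblastic arrays 2 and 4 against 7.10 and 7.11. Single genes of that list went the other way, such as Tnfaip6, Sod2 and Il6, which were lower in fibroblastic arrays 2 and 4.

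An RNA quality measure was set beside these arrays. The gap between actin's 3′ and 5′ control probe sets, which is larger where RNA is less intact, was 0.86 in epithelial array 3 against 1.20 and 1.47, and 2.65 and 2.01 in fibroblastic arrays 2 and 4 against 1.72 and 1.05. For actin, the array with high Cxcl1 and Cxcl2 thus had the smallest gap in the epithelial line. In the fibroblastic line the arrays with high Ccl2 and Ccl7, and with low Cxcl12, had the largest. The same gap for GAPDH spanned little in the epithelial line, at -0.14, -0.11 and -0.10 in arrays 1 to 3, where array 3 had the highest value. In the fibroblastic line it was 0.15, 0.27, -0.04 and 0.15 in arrays 1 to 4. The part of RNA quality in the spread was not tested.

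**Figure D2:**
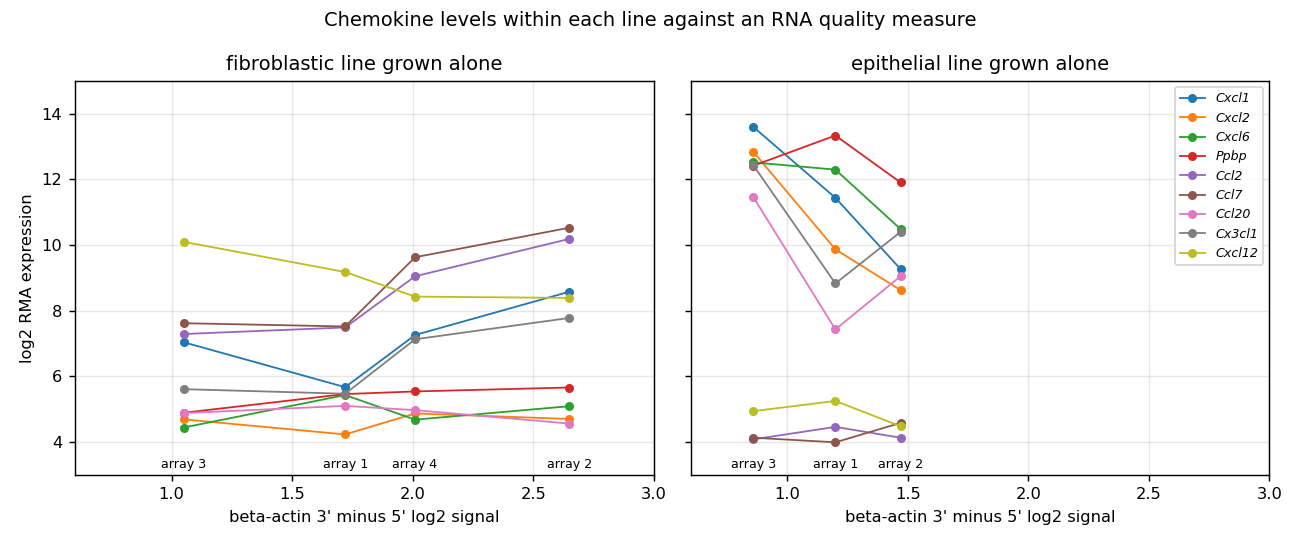
Log2 level of the 9 chemokines (vertical axis, 1 coloured line a gene, 1 point an array) against the gap between actin's 3′ and 5′ control signals in log2 units (horizontal axis) within each line grown alone. The high Ccl2 and Ccl7 levels of fibroblastic arrays 2 and 4 lie at differences of 2.65 and 2.01, and the high Cxcl1 and Cxcl2 levels of epithelial array 3 at 0.86.

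Tumour tissue had the epithelial line's chemokines and the fibroblastic line's together. Cxcl6 and Ppbp were far above the fibroblastic line and near the epithelial line, Ccl2, Ccl7 and Cxcl12 were far above the epithelial line, and Cxcl1, Cxcl2 and Cx3cl1 were below the epithelial line. Against the epithelial line 3 members were called higher, where 18.9% of all genes were, and 4 lower, where 33.2% were. The tumour and epithelial arrays did not overlap for 3 members in the higher direction (21.3% of all genes) and 3 in the lower (37.0%). Against the fibroblastic line limma called 5 members higher, where 27.3% of all genes were called, and 0 lower, where 33.5% were, and no member's estimate there was below 0. The arrays of 4 of those 5 did not overlap (26.2% of all genes), the exception being Ccl2.

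Cxcl1 was at 7.82, 7.03, 6.39 and 8.05 in the tumours, all below the lowest epithelial array. The difference from the epithelial line was -4.11 (SE 0.92, limma adjusted p = 0.00409) and that from the fibroblastic line, 0.19, did not pass the test (95% interval -1.70 to 2.08, limma adjusted p = 0.859). Cxcl2 was at 7.54, 7.40, 6.25 and 7.39, so that every tumour lay between the ranges of the lines, a pattern 7.95% of genes had and no other member. The difference was -3.30 from the epithelial line (SE 0.77, limma adjusted p = 0.0051) and 2.52 from the fibroblastic line (SE 0.71, limma adjusted p = 0.0109).

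Cxcl6 was at 11.61, 10.95 and 11.09 in tumours 2 to 4 and at 11 in tumour 1, inside the epithelial range. It was 6.25 above the fibroblastic line (SE 0.41, limma adjusted p = 5.77e-07), and its difference from the epithelial line was -0.61 (95% interval -1.58 to 0.36, limma adjusted p = 0.264). Without epithelial array 2, the lowest of its group, that difference was -1.25 and called (limma adjusted p = 0.00637). Ppbp was at 11.45, 11.61, 11.41 and 12.13, which is 6.27 above the fibroblastic line (SE 0.30, limma adjusted p = 6.62e-08). The difference from the epithelial line was -0.91 (SE 0.32, limma adjusted p = 0.0353), with overlapping arrays. This call ended without tumour 1, 2 or 3 (limma adjusted p = 0.0815, 0.061 and 0.079), without epithelial array 1 or 3 (0.152 and 0.058) and after quantile normalization (0.0726).

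Ccl2 was at 9.59, 10.09, 10.17 and 9.82 in the tumours, in a narrow band. It was 5.69 above the epithelial line (SE 0.58, limma adjusted p = 3.54e-05) and 1.41 above the fibroblastic line (SE 0.54, limma adjusted p = 0.0407). Tumours and fibroblastic arrays overlapped, since fibroblastic array 2 was above every tumour, and that call ended without any 1 tumour (limma adjusted p of 0.0555 to 0.0875), any 1 epithelial array (0.052 to 0.0533) or fibroblastic array 1 or 3 (0.111 and 0.108).

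Ccl7 was at 8.17, 9.13, 9.32 and 8.78 in the tumours, 4.62 above the epithelial line (SE 0.66, limma adjusted p = 0.000286). Against the fibroblastic line it did not pass the test (0.02, 95% interval -1.32 to 1.37, limma adjusted p = 0.974), and without fibroblastic arrays 2 and 4 the difference was 1.28 and called (limma adjusted p = 0.00759).

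Ccl20 was at 8.76, 9.54, 8.89 and 8.45 in the tumours, 4.03 above the fibroblastic line (SE 0.66, limma adjusted p = 0.000401) and -0.40 from the epithelial line (95% interval -1.98 to 1.17, limma adjusted p = 0.657). Cx3cl1 was at 8.02, 8.58, 7.50 and 7.92, a difference of -2.55 from the epithelial line (SE 0.78, limma adjusted p = 0.0194). That call ended without epithelial array 3 (-1.61, limma adjusted p = 0.0758). Its difference of 1.51 from the fibroblastic line missed the threshold (95% interval -0.10 to 3.11, limma adjusted p = 0.094) and passed it without epithelial array 1 or 3 (0.0498 and 0.0395) or fibroblastic array 2 (0.0465).

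Cxcl12 was at 9.25, 9.39, 8.57 and 9.73 in the tumours. It was 4.35 above the epithelial line (SE 0.41, limma adjusted p = 2.27e-05), and its difference from the fibroblastic line was 0.21 (95% interval -0.63 to 1.06, limma adjusted p = 0.65). The dimmest of its 3 probe sets gave 1.76 against the fibroblastic line and was called (limma adjusted p = 0.0127), which the 2 others were not.

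**Figure D3:**
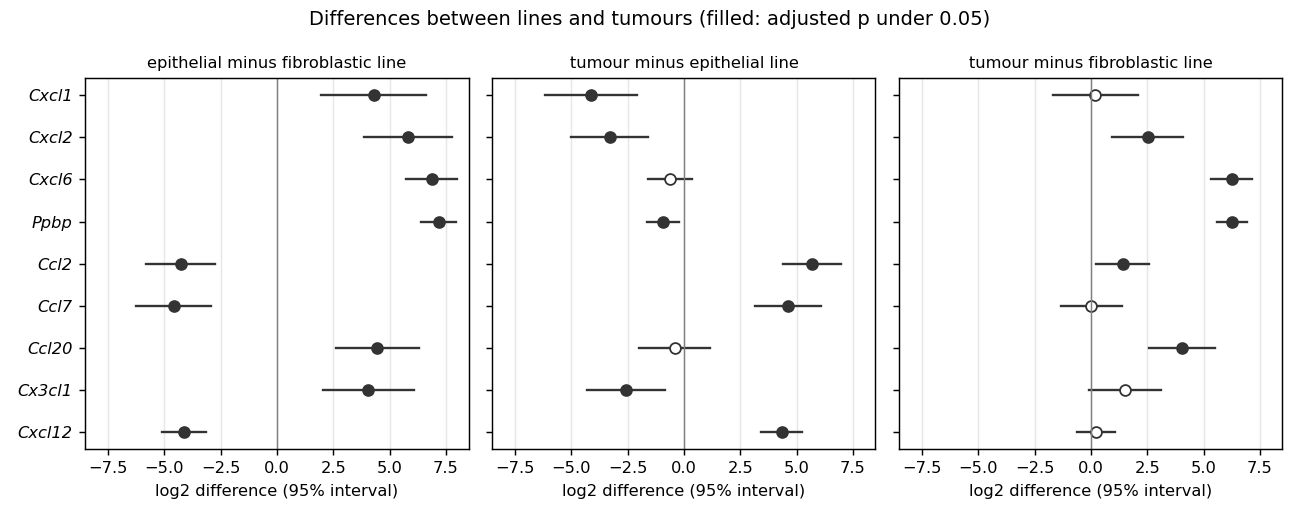
Log2 difference with its 95% interval for the 9 chemokines in the comparison of the lines and of the tumours with each line (filled where called at an adjusted p under 0.05). Ppbp and Cxcl6 lie near 7 between the lines and near 6 between tumours and the fibroblastic line, and Ccl2, Ccl7 and Cxcl12 lie above 4 between tumours and the epithelial line.

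Liver RNA differed between tumours, so the comparisons were repeated with tumours 2 and 3 and with tumour 2 alone, the tumour with Alb at 7.50 rather than 13.94 to 14.51. Against the epithelial line 5 members were called without tumours 1 and 4, where 32.0% of all genes were, and 3 with tumour 2 as the only tumour (Ccl2, Ccl7 and Cxcl12), where 13.8% were. Against the fibroblastic line 3 were called in both cases (Cxcl6, Ppbp and Ccl20), where 46.0% and 27.5% of all genes were. No called difference changed direction. Cxcl1 and Cxcl2 missed the threshold against the epithelial line only with tumour 2 alone (limma adjusted p = 0.0917 and 0.152), where their differences were -4.41 and -3.04, close to those with all tumours.

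Markers of the leukocytes that read these chemokines were present in the tumours. The mean of 18 monocyte and macrophage markers was 9.38 to 9.75 in the tumours and 5.01 to 5.39 in the lines, with 18 of 18 called higher against either line, and the mean of the 9 neutrophil markers measured was 6.35 to 6.86 against 4.34 to 5.34, with 7 and 9 of 9 called higher. Of all genes 18.9% were called higher against the epithelial line and 27.3% against the fibroblastic line. The pan-leukocyte gene Ptprc was at 6.93 to 7.42 in the tumours and at most 4.59 in the lines. The part of leukocyte RNA in the tumours' chemokine levels was not tested.

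Cxcr1, Cxcr2, Ccr2, Ccr6, Cx3cr1 and Cxcr4, which read the members, were called higher in the tumours than in either line. Cxcr4, the receptor of Cxcl12, was 4.06 above the epithelial line and 3.97 above the fibroblastic line (limma adjusted p = 4.09e-06 and 1.02e-06). Cxcr2, the receptor of the neutrophil chemokines, was at 5.72 to 6.27 in the tumours and 4.39 to 4.70 in the lines (1.48 and 1.39 higher, limma adjusted p = 2.4e-05 and 8.27e-06). Ccr2, which reads Ccl2 and Ccl7, rose by 1.59 and 1.76 (limma adjusted p = 0.000342 and 5.45e-05), Cx3cr1 by 1.50 and 1.54 (8.76e-06 and 1.58e-06) and Ccr6 by 1.10 and 1.28 (0.000777 and 0.000101). Cxcr1 rose by 0.61 and 0.88 (limma adjusted p = 0.00858 and 0.000423), and its call against the epithelial line ended after quantile normalization (0.467). The scavenging Cxcl12 receptor Ackr3 did not pass the test against either line (0.45 and -0.52). Over all 16 receptors measured, 12 were called higher and 1 lower against the epithelial line and 14 and 1 against the fibroblastic line, with medians of 0.83 and 0.99 where those of all genes were -0.17 and -0.07. Of all genes 18.9% and 27.3% were called higher in these comparisons, and 33.2% and 33.5% lower.

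Most of the other chemokines measured were called higher in the tumours than in either line. Of 22 measured, 13 were called higher and 1 lower than in the epithelial line (median 0.76) and 19 and 0 than in the fibroblastic line (median 1.91). Of all genes 18.9% were called higher and 33.2% lower against the epithelial line (median -0.17). Against the fibroblastic line 27.3% and 33.5% were (median -0.07). The B cell chemokine Cxcl13, Ccl9 and Ccl6 were 6.74, 5.66 and 4.54 above the epithelial line. Cxcl13 was at 10.46 to 12.0 in the tumours and at 5.19, 10.67, 4.74 and 9.81 in fibroblastic arrays 1 to 4. Ccl9 was at 11.87, 5.97, 9.35 and 11.86 in tumours 1 to 4, lowest in tumour 2 as the hepatocyte list was, and its difference was 6.92 without tumour 2 and 1.87 with tumour 2 alone. The part of liver RNA in it was not tested. Between the lines 4 of the 22 were called in favour of the epithelial line and 1 of the fibroblastic line, shares no larger than the 20.9% and 16.6% of all genes. The first 4 held Pf4 (4.04), which lies beside Ppbp, the interferon-induced Cxcl10 (3.60) and the membrane-bound Cxcl16 (3.15). The Cxcl10 call ended without fibroblastic array 1, 2 or 4 (limma adjusted p = 0.0543, 0.0538 and 0.0521). Cxcl3, the gene between Cxcl1 and Pf4, was 2.86 higher in the epithelial line (limma adjusted p = 8.17e-05).

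Genes that induce chemokines or share their NF-kappaB control were called in both directions between the lines. Of 31 measured, 14 were called higher and 5 lower in the epithelial line (median 0.47, against 0.11 for all genes). Of all genes 20.9% and 16.6% were, so the share called lower was no larger than that of all genes. Il1a, a cytokine that turns on chemokine genes in neighbouring cells, was at 11.15, 10.53 and 12.24 in the epithelial arrays and 4.35, 4.18, 4.19 and 4.55 in the fibroblastic arrays (6.99, SE 0.36, limma adjusted p = 3.12e-06). The granulocyte growth factor Csf3 differed by 4.07 and the NF-kappaB feedback inhibitor Tnfaip3 by 4.79 (limma adjusted p = 2.73e-06 and 0.00044), and Il6 by -2.89 (7.68e-05). Il1b was low in both lines (4.82 to 5.48) and was 3.77 and 3.73 higher in the tumours than in the epithelial and fibroblastic lines (limma adjusted p = 1.59e-06 and 3.62e-07).

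Among 7 sheddases and proteases that release or trim chemokines, 0 were called higher and 3 lower in the epithelial line than in the fibroblastic line. Of all genes 20.9% and 16.6% were. The Mmp9 call (-0.67, limma adjusted p = 0.0428) ended without any 1 epithelial array (0.0586 to 0.137). Adam10, which sheds Cx3cl1, was called higher in the epithelial line with the mean of its probe sets (0.94, limma adjusted p = 0.000553). A single fit of all 13 arrays also called it (0.66, 0.0328). Adam10 was 1.45 and 2.11 higher in the tumours than in the epithelial and fibroblastic lines (limma adjusted p = 0.000429 and 9.9e-06). Adam17, which also sheds Cx3cl1, differed there by -0.23 and -0.50. The second was called (limma adjusted p = 0.335 and 0.0317) but ended when arrays were centred on their medians (0.174).

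The co-culture arrays were compared with both lines, because each held both lines' markers. The leukocyte gene Ptprc was at 4.40 and 4.50 in them, inside the range of the lines, and the mean of the macrophage list at 5.35 and 5.27 was also inside. The median difference of that list from the labelled line was 0.01 and 0.07. Several single genes of it lay outside. For example, Cd68, at 6.74 and 6.67, was above the 6.11 that was highest in the lines. Others did so in the array labelled epithelial co-culture, such as Cd14 and Aif1 above the lines and Fcgr1a below them. Fcer1g, at 5.06 in that array, was below the 5.34 that was lowest in the lines. The mean of the 9 neutrophil markers was 5.90 and 5.47, above the 5.34 that was highest in the lines, with 2 (S100a9 and S100a8) and 1 (S100a9) of the 9 called higher than in the labelled line. S100a9 was at 13.42 and 11.50, and at 7.36 to 10.53 in the epithelial line grown alone. The neutrophil receptor gene Csf3r was at 4.12 and 4.14, inside the range of the lines, as were Camp and Ncf4. Cxcr2 was at 4.68 and 5.02, the second above the 4.70 that was highest in the lines. Mmp8 was at 3.92 and 4.16, where the highest line array was at 4.13. With 1 array a group, each co-culture array is taken to vary as the replicated lines do. A change within the labelled cells and RNA of the partner line cannot be told apart in a difference from the labelled line alone.

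Ccl2 stood above every array of both lines in both co-cultures. It was at 11.35 in the array labelled epithelial co-culture and 12.51 in the array labelled fibroblastic co-culture, against at most 10.19 in either line, which is 2.23 and 4.99 times the highest line array. Against the epithelial line the first was 7.12 higher (SE 1.00, 95% interval 4.82 to 9.43, limma adjusted p = 0.00443), from epithelial arrays near the bottom of the scale. It was the only member called there, where 4.87% of all genes were called higher. Against the fibroblastic line it was 2.84 higher and not called (SE 0.97, limma adjusted p = 0.111), and called without fibroblastic array 2 (0.0187).

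In the array labelled fibroblastic co-culture Ccl2 was 4.0 above the fibroblastic line (SE 0.97, limma adjusted p = 0.0427), a fold of 16.0 with an interval of 3.41 to 75.2. That call ended without any 1 epithelial array (limma adjusted p of 0.0677 to 0.0726) or without fibroblastic array 1, 3 or 4 (0.0663, 0.0525 and 0.0642). Against the epithelial line it was 8.28 higher (SE 1.00, limma adjusted p = 0.00174). A level above both lines was found for 2 members (Ccl2 and Cxcl6) in the array labelled epithelial co-culture, where 10.2% of all genes had one, and for 3 (Ccl2, Ccl7 and Cxcl6) in the array labelled fibroblastic co-culture, where 9.15% had one.

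Ccl7 was at 8.38 and 11.21 in the arrays labelled epithelial and fibroblastic co-culture, against 7.52 to 10.53 in the fibroblastic line. The latter lay 1.60-fold above the highest line array and was 6.97 above the epithelial line (SE 1.09, limma adjusted p = 0.00681). The former was 4.15 above the epithelial line and missed the threshold (SE 1.09, limma adjusted p = 0.0629), passing it without fibroblastic array 2 (0.0242). The latter's Ccl7 difference of 2.38 from the fibroblastic line was not called (limma adjusted p = 0.252) and was called without fibroblastic arrays 2 and 4 (3.63, 0.00106).

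The neutrophil chemokines were near their epithelial levels in both co-culture arrays. Cxcl1 was at 12.93 and 12.36, Cxcl2 at 12.20 and 11.90, Cxcl6 at 12.68 and 12.73 and Ppbp at 11.91 and 12.73 in the arrays labelled epithelial and fibroblastic co-culture. All lay within the range of the epithelial line, except Cxcl6, which was 0.16 and 0.21 above its highest array. Against the epithelial line none of the 4 was called in either array (differences of -0.65 to 1.76), and Cxcl2 was called in both without epithelial array 3 (2.96 and 2.65, limma adjusted p = 0.0217 and 0.0289).

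Against the fibroblastic line the array labelled fibroblastic co-culture had 5 members called higher, where 4.78% of all genes were. Besides Ccl2 these were Cxcl2 (7.28, SE 1.24, limma adjusted p = 0.0103), Cxcl6 (7.81, SE 0.72, 0.000574), Ppbp (7.34, SE 0.50, 0.000151) and Ccl20 (5.17, SE 1.16, 0.0336). Cxcl1 was 5.22 higher and missed the threshold (limma adjusted p = 0.0761), passing it without epithelial array 2 or 3 (0.0373 and 0.0397), and the Ccl20 call ended without epithelial array 2 or any 1 fibroblastic array (0.056 to 0.0649). The epithelial markers rose in the same array, as given above, and their part in these 5 results was not tested.

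The difference between the 2 co-culture arrays' changes, each from its own line, was -6.90 for Cxcl6 (SE 1.03, limma adjusted p = 0.00484) and -7.99 for Ppbp (SE 0.72, limma adjusted p = 0.000372). They were the 2 members called in it, where 3.76% of all genes were called lower. The co-culture arrays themselves had similar levels (12.68 and 12.73 for Cxcl6, 11.91 and 12.73 for Ppbp), so these values mostly restate the difference between the lines grown alone (6.86 and 7.17).

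Ccl20 was at 10.84 and 10.05 and Cx3cl1 at 11.66 and 10.38 in the arrays labelled epithelial and fibroblastic co-culture, all inside the epithelial range. Against the epithelial line they differed by 1.52 and 1.10 in the first array and 0.73 and -0.17 in the second, none called. Cx3cl1 in the second was 3.89 above the fibroblastic line and was not called (limma adjusted p = 0.126).

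Cxcl12 separated the co-culture arrays. It was at 4.88 in the array labelled epithelial co-culture, inside the epithelial range, and at 9.32 in the array labelled fibroblastic co-culture, inside the fibroblastic range. The first differed by -4.15 from the fibroblastic line (SE 0.62, limma adjusted p = 0.00475), where 5.38% of all genes were called lower. Fibroblast markers in that array varied, with a median difference of -1.1 from the fibroblastic line. Tagln, at 7.82, and Acta2, at 7.56, were below the fibroblastic arrays (11.91 to 14.36 and 9.29 to 12.13). Col1a1, at 12.61, was below them too (13.43 to 13.96), and Fn1, at 13.84, was above them (13.58 to 13.76). The array labelled fibroblastic co-culture had a similar median difference, -1.05. Tagln at 9.91, Acta2 at 9.06 and Col1a1 at 13.04 were below the fibroblastic arrays there too, and Fn1, at 13.74, was inside their range. In the array labelled fibroblastic co-culture Cxcl12 was 4.43 above the epithelial line (SE 0.64, limma adjusted p = 0.00447). Another Cxcl12 probe set gave -3.92 and 4.49 in the same comparisons (limma adjusted p = 0.0159 and 0.0129), and the dimmest gave -0.66 and 2.30, neither called (0.699 and 0.176).

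**Figure D4:**
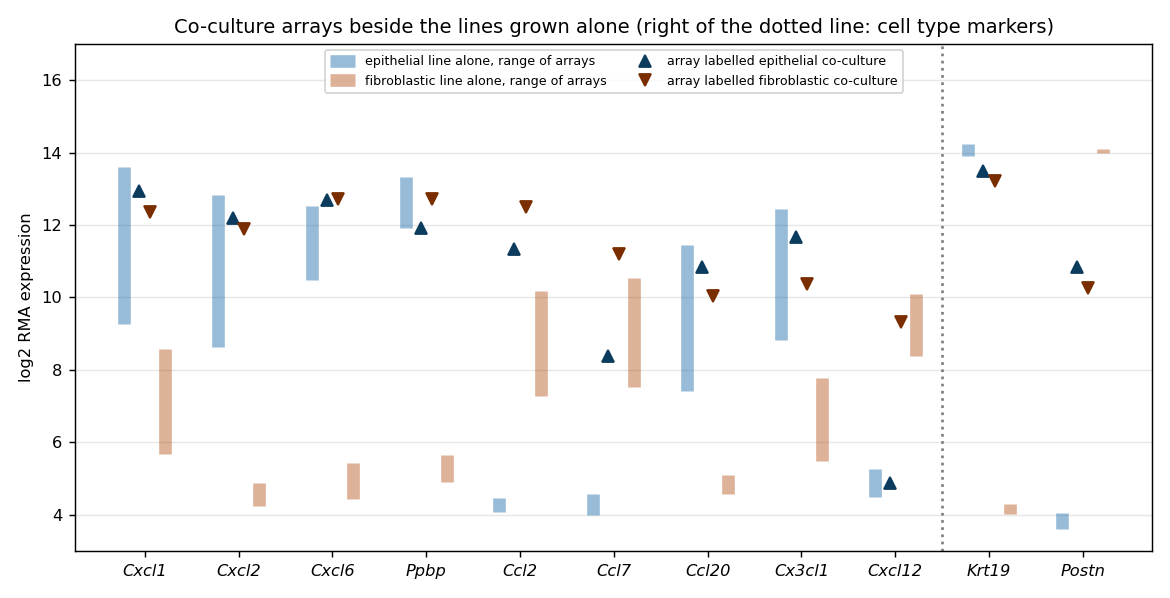
Log2 levels of the 9 chemokines in the arrays labelled epithelial and fibroblastic co-culture (1 array each, no error bar), drawn over the ranges of the lines grown alone. Ccl2 lies above both ranges in both arrays, Cxcl6 lies 0.16 and 0.21 above the epithelial range, and Cxcl12 follows the label.

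Set against the fibroblastic line, the array labelled epithelial co-culture had 6 members called higher (5.59% of all genes were) and 1 lower. Set against the epithelial line, the array labelled fibroblastic co-culture had 3 called higher (5.44%), which were Ccl2, Ccl7 and Cxcl12. Of the 6, the calls of Cxcl1 (5.80, limma adjusted p = 0.0438) and Cx3cl1 (5.16, 0.0413) ended without some single arrays. For Cxcl1 these were epithelial array 1 and fibroblastic arrays 1, 3 and 4 (0.0684 to 0.0785), and for Cx3cl1 epithelial array 2 and fibroblastic arrays 1, 3 and 4 (0.063 to 0.0719).

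Among the inducers of chemokines, Il6, a cytokine of stromal and epithelial cells, was at 9.57 and 9.05 in the arrays labelled epithelial and fibroblastic co-culture, above the 7.52 that was the highest of either line. It was 5.46 above the epithelial line in the first (SE 0.40, limma adjusted p = 0.000114) and 2.05 above the fibroblastic line in the second (SE 0.38, limma adjusted p = 0.0149). Of the 31 inducers and NF-kappaB targets, 3 were called higher and 0 lower in the first against the epithelial line (median 0.40, against -0.09 for all genes) and 11 and 0 in the second against the fibroblastic line (median 1.84, against 0.03). Of all genes 4.87% and 4.78% were called higher there, and 28 and 20 of the 31 were not called. Il1a, at 11.57 and 10.83, was within the epithelial range in both. The calcium-binding gene S100a9, from the neutrophil list, was at 13.42 and 11.50, above all line arrays, of which the highest was 10.53. It was also called between the lines grown alone, 4.78 higher in the epithelial line (limma adjusted p = 0.000844). Its difference of 4.19 from the epithelial line in the first (SE 0.99, limma adjusted p = 0.0443) lost its call without epithelial array 2 (0.0662) or any 1 fibroblastic array (0.0647 to 0.0709).

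Genes whose pattern over the 13 arrays was most like that of each member were named by Pearson r among the 4847 genes that varied by at least 2 log2 units. These arrays fall into groups of the same cells and share normalization, so the values are descriptive. Cxcl1 was most like Nfkbiz (0.933), Dyrk3 (0.926) and Cxcl2 (0.925), and Cxcl2 was most like Csf2 (0.947), Tnfaip3 (0.937) and Il1a (0.935). Cx3cl1 was most like Nfkbia (0.985), Tnfaip3 (0.967) and Sdc4 (0.965).

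For Cxcl6 the most alike were Ppbp (0.984), Prom1 (0.982) and the claudin Cldn4 (0.978), and for Ppbp Tgm1 (0.990), the keratin Krt18 (0.989) and Prss22 (0.989). Ccl20 was most like Sh3yl1 (0.959), Tmem45b (0.953) and the epithelial transcription factor Elf3 (0.949). Ccl2 was most like Ctsl (0.969), Nt5e (0.959) and Enpp3 (0.949), and Ccl7 like Ccl2 (0.937) and the collagens Col6a3 (0.935) and Col15a1 (0.929). Cxcl12 was most like Dusp22 (0.933), Lpar6 (0.927) and the smooth muscle gene Tagln (0.906).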

How the data were processed

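Per the submitters' processing notes the arrays were summarised by RMA, and the deposited log2 values were used as they are. Of 31099 probe sets, 20826 named 1 gene in the platform annotation (436 several, 9780 none, 57 controls), and the probe set with the highest mean stood for each of 14217 genes. Array medians were 6.15 to 6.25. Differences were tested with limma 3.58.1 (R 4.3.3), in 1 model of the 9 line and co-culture arrays and 1 of the 11 tumour and line arrays, after the code was tested on simulated data. Files were read with pandas 2.3.3.

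Besides the members, the text names the 3 genes with the highest Pearson r to each member, up to 3 called genes of each list per comparison, cell type markers, the members' receptors, and genes of the lists chosen after their values were seen, such as Cxcl3, Adam17 and Csf3. The members and lists were chosen with earlier results of these data known. Alternatives were another normalization, centring, filter, probe set rule, moderation, threshold, fit and sets of arrays. Comparisons of each co-culture array with the other line were added after seeing the data.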

Additional observations from a re-analysis of the deposited data

Results flagged for a closer look

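In groups of 4 arrays the highest and lowest values were set against Dixon's limit, 36 groups in all, of which chance flags about 1 in 20. Cxcl2 was far below the other tumours in tumour 3, at 6.25 against a nearest value of 7.39. Alb, the hepatocyte marker, was far below the others in tumour 2, at 7.50 against 13.94.

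The change in the co-culture arrays differed between the labels for 2 members. The Cxcl6 difference was -6.90 (SE 1.03, limma adjusted p = 0.00484), from 0.91 in the epithelial and 7.81 in the fibroblastic label. The Ppbp difference was -7.99 (SE 0.72, limma adjusted p = 0.000372), from -0.65 and 7.34. The co-culture arrays themselves had similar levels (12.68 and 12.73 for Cxcl6, 11.91 and 12.73 for Ppbp), so these values mostly restate the difference between the lines grown alone (6.86 and 7.17). Epithelial markers were at 11.56 in the array labelled fibroblastic co-culture and 4.46 to 4.95 in its line grown alone, and their part in these differences was not tested.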

How the results depend on the processing

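Of 72 member results, 44 kept their side of the threshold under every alternative, and 34 of these also kept their direction. The other 10 were never called, and no called result reversed. Over 1420 alternatives 65 ended a call and 25 gained one. At an adjusted p under 0.01, limma called 3391 of 5324 genes between the lines, 4878 of 7407 for tumours against the epithelial line, 453 of 1029 and 532 of 1195 for the co-culture arrays against their own line, 678 of 1560 and 534 of 1086 against the other line, and 632 of 1198 for the difference in response. Members called were then 3 of 5 for tumours against the fibroblastic line, 2 of 5 for the array labelled fibroblastic co-culture against its line and 4 of 7 for the other array against that line. A single model of all 13 arrays called 1743 genes for the array labelled epithelial co-culture against its line and 1651 for the other array against that line. The first had 2 members called, Ccl2 and Ccl7, rather than 1, as it had without fibroblastic arrays 2 and 4 and with only the groups compared. Without tumours 1 and 4, 4549 genes were called against the epithelial line and 3 members against the fibroblastic line. With tumour 2 alone, 1958 genes and 3 members were called against the epithelial line, and 3912 of 8652 genes and 3 members against the fibroblastic line.

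Leaving out 1 array at a time gave 5 to 8 members for tumours against the epithelial line, 4 to 6 against the fibroblastic line, 1 to 2 for the array labelled epithelial co-culture and 3 to 5 for the array labelled fibroblastic co-culture against their own lines. Centring arrays on their medians changed the split for tumours from 2685 higher and 4722 lower to 3751 and 3431 against the epithelial line, and from 3888 and 4764 to 5095 and 3821 against the fibroblastic line. With a replicate block, 4252 genes were called between the lines, 6638 for tumours against the epithelial and 8405 against the fibroblastic line, and the number of members called stayed at 9, 7 and 5. Same-numbered arrays correlated at -0.15 to 0.14 in their deviations from the group means. Such values over so few arrays cannot settle whether they share an animal or culture, and the co-culture arrays carry no number. The cause of these changes was not tested, beyond fewer arrays or a stricter limit where that is the alternative itself.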
